A study of Rattus norvegicus with 6 samples.

Results

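Cytosolic ribosomal proteins and translation factors are described here in the contralateral prelimbic cortex (PL) of rats with spared nerve injury (SNI). The set was defined by gene symbol alone, but it was chosen with earlier results of these data known. It took every gene whose symbol begins with Rpl or Rps and a digit, or with Rplp, and every gene whose symbol begins with Eif or Eef and a digit, without the ribosomal S6 kinases and the eIF2 kinases. It holds 105 of the 14217 genes that have a probe set of their own on the array, read by 142 probe sets. Of these genes, 49 carry the symbol of a cytosolic ribosomal protein, 34 of the large and 15 of the small subunit, and 56 that of a translation factor. The former include paralogs and 2 genes named as pseudogenes, Rpl37-ps2 and Rps4x-ps1, and the latter include inhibitors and modifying enzymes of the factors. A further 41 probe sets carry several symbols, one of which is of this kind (36 ribosomal and 5 factor). They name no gene, and Rpl10, Rplp1 and Rplp2, which have no other probe set, have no value of their own.

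The arrays, Affymetrix chips that cover the rat genome with probe sets for single mRNAs, measured RNA of the PL taken on day 14 after surgery from 3 SNI and 3 control samples. All were male Sprague-Dawley rats. SNI removes most of the input from the left hind paw by cutting 2 of the 3 end branches of its sciatic nerve (tibial and common peroneal), so that only the sural branch remains. The other samples are labelled control. A sham operation without nerve cuts is described, but it is not stated outright that these samples had it. The number of arrays limits the precision, and whether a sample came from 1 rat or from several was not given. The p-values set a difference against the variation between these samples, moderated over all genes, which need not be the variation between rats. The deposited values are log2 signals relative to the probe set's own median across all 6 arrays. Differences between samples can therefore be read, but no level of an mRNA and no signal over background, so that neither the tissue nor the expression of a gene could be checked from its level. Below, "relative value" means this centred log2 value, averaged over the probe sets of a gene, and "difference" means the mean of the SNI group minus the mean of the control group on the log2 scale.

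A cytosolic ribosome reads mRNA and joins amino acids into protein. Its small subunit decodes the message, and its large subunit forms the peptide bond and holds the exit tunnel and the stalk, to which elongation factors bind. Initiation factors bring the first tRNA and the small subunit to the mRNA cap, and elongation factors deliver the following tRNAs and move the ribosome along. In neurons, translation also takes place in dendrites near synapses, and it is controlled through mTOR, S6 kinase, the 4E-BP proteins and phosphorylation of eIF2. The mRNAs of ribosomal proteins and of several elongation factors characteristically begin with a C followed by a run of C and T (U in the RNA), the 5′ terminal oligopyrimidine tract, through which mTOR acts on their translation.

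Runs of this kind occur near many of the annotated start sites, a feature that the choice of genes did not use. A run in the window need not be at the first base of the mRNA, and those of Rpl13a and Rps28 lie just before and a few bases after the annotated start. They are from RefSeq on GRCr8, written 5′ to 3′ on the strand of the gene, and reach from 10 bases before the annotated start to the first 20 bases of the transcript. Capitals mark the longest run of at least 7 C or T that begins with C. The first 5 are ribosomal protein genes with such a run, and the following 3, Rpl21, Eif2b3 and Eif4ebp2, are genes described below that have none.
Rpl13a (chr1:104748894-104748923, minus strand): tCCTTTCCTaggcggctgccgaagatggcg
Rpl35 (chr3:43165902-43165931, minus strand): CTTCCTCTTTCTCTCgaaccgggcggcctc
Rplp0 (chr12:46718371-46718400, minus strand): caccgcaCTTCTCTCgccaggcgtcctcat
Rps15 (chr7:10068096-10068125, minus strand): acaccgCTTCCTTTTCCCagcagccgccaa
Rps28 (chr7:15311314-15311343, minus strand): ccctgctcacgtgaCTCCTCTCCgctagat
Rpl21 (chr12:13386134-13386163, minus strand): ttccgccggggcagccatcttccaggttgg
Eif2b3 (chr5:135728832-135728861, plus strand): cagccggaggcagcgtggggagcgctggga
Eif4ebp2 (chr20:29942903-29942932, minus strand): cggtagtcatcgttgccgctgctgccgctg
Of the 105 genes, 93 had a start in the RefSeq table. A run was present in 23 of the 42 starts of ribosomal proteins (54.8%), in 12 of the 54 starts of factors (22.2%) and in 12.4% of all 33469 starts. For mitochondrial ribosomal proteins the share was 9.23%, 6 of 65 starts. In the 300 bases around the start, the letters CCGGAAG on either strand were found in 23.8% of the starts of ribosomal proteins, 35.2% of those of factors, 32.3% of those of mitochondrial ribosomal proteins and 8.75% of all starts. The median difference between the groups of rats was 0.10 for the 23 ribosomal protein genes with a run and 0.098 for the 19 without. Of the former, 22 were above 0 and 13 had SNI samples above all control samples, and of the latter 15 and 8. Over all genes the shares were 45.2% above 0 and 6.39% with SNI samples above all control samples. Whether genes with and without a run differ was not tested.

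Ribosomal protein mRNAs were mostly higher in the SNI group, with every difference small. Translation factor mRNAs leaned slightly lower, a direction that all genes also had to a lesser degree. Of the 49 ribosomal protein genes, 42 had a difference above 0 (85.7%), against 45.2% of all genes. Their median difference was 0.095 (interquartile range 0.052 to 0.15), while the median over all genes was -0.011. Of the 56 factors, 20 had a difference above 0 (35.7%, against 45.2% of all genes) and 36 below, with a median of -0.041. No gene of the set reached a fold change of 1.5, which together with an unadjusted p under 0.05 was reached by 0.211% of all genes.

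The test was limma's, two-sided and fitted over all 14217 genes, with Benjamini-Hochberg adjustment. At an adjusted p under 0.05 no gene of the set and 0 of all genes passed (0%), and the smallest adjusted p in the set was 0.200. At an unadjusted p under 0.05, 13 ribosomal protein genes were called higher (26.5%) and 1 lower (2.04%). The same threshold called 3.96% of all genes higher and 9.19% lower, or 13.2% in either direction. Among the factors 1 gene was called higher (1.79%) and 7 lower (12.5%), and the latter share is near that of all genes. Under the stricter unadjusted p of 0.01, 3 ribosomal protein genes (Rpl21, Rpl13a and Rpl39l1) were called higher and 1 factor (Eif2b3) lower, with 1.1% of all genes called higher and 3.04% lower. The 3 SNI samples lay entirely above the 3 control samples for 26 ribosomal protein genes (53.1%) and entirely below for 1, against 6.39% and 13.7% of all genes. For the factors these counts were 3 above and 13 below (23.2%). With 3 samples a group, an exact permutation test of 1 gene cannot give a p below 0.1.

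**Figure D1:**
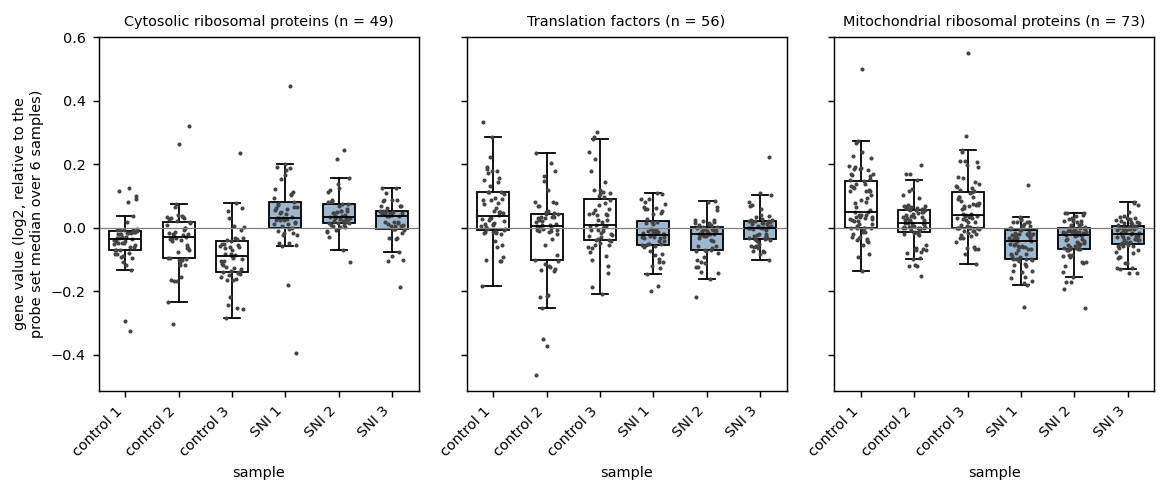
Relative values (log2, each probe set against its own median over the 6 arrays) of the genes of each kind in every sample. Each point is a gene, and boxes give the median and the quartiles, with whiskers to the most distant gene within 1.5 box lengths. Ribosomal proteins sit higher in the 3 SNI samples (medians 0.032, 0.036 and 0.038) than in the 3 control samples, and mitochondrial ribosomal proteins sit lower.

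The median over the ribosomal protein genes separated the groups. This median relative value was 0.032, 0.036 and 0.038 in the 3 SNI samples and -0.035, -0.029 and -0.089 in the 3 control samples. The 2 groups did not overlap in this median, the SNI samples were close to each other, and control 3 was the lowest. Control 3 held the lowest value of the 6 samples for 27 of the 49 genes (55.1%), against 16.3% of all genes. The factors had medians of -0.021, -0.019 and -0.00026 in the SNI samples and 0.037, 0.0072 and 0.0088 in the control samples. Here too the groups did not overlap, in the opposite direction and by less. The median over all genes also separated the groups in that direction, with -0.0056, -0.0067 and -0.0032 in the SNI samples and 0.0026, 0.017 and 0.00089 in the control samples.

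The count of 13 calls fell when some single samples were left out, with fewer samples in each such fit. It was 4 without SNI 1, 7 without SNI 2, 7 without SNI 3 and 6 without control 3, and with the hybridization controls of the arrays as a covariate it was 1. The share of all genes called in these fits is not given here, so the counts are not read as particular to the ribosomal proteins. The number of genes with a difference above 0 was between 37 and 42 in each setting fitted on all 49, against 39.8% to 49.1% of all genes.

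Among the large subunit genes 31 of 34 had a difference above 0, with a median of 0.097, and 10 were called higher (29.4%) and 1 lower (2.94%) at an unadjusted p under 0.05, against 3.96% and 9.19% of all genes. The groups did not overlap for 19 higher genes (55.9%) and 1 lower gene, against 6.39% and 13.7% of all genes. Rpl21 had the smallest unadjusted p of the whole set. It encodes a protein of the large subunit, and its relative value was 0.19, 0.12 and 0.083 in the SNI samples and -0.083, -0.094 and -0.14 in the control samples. All 3 SNI samples were above all 3 control samples, by a difference of 0.24 (SE 0.055, 1.18-fold), with an unadjusted p of 0.00257 and an adjusted p of 0.200 by limma.

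Rpl13a, a large subunit protein that also acts outside the ribosome in silencing the translation of inflammatory mRNAs, had relative values of 0.12, 0.11 and 0.068 in the SNI samples and -0.068, -0.23 and -0.15 in the control samples. SNI and control samples did not overlap, and the latter were spread more widely. The difference was 0.25 (95% confidence interval 0.11 to 0.39, limma's adjusted p = 0.206). Rpl39l1, named as a copy of Rpl39, a protein that lines the exit tunnel, had relative values of 0.17, 0.13 and 0.089 in the SNI samples and -0.29, -0.10 and -0.089 in the control samples. Again there was no overlap, although control 1 stood far below the other control samples. The difference of 0.29 (95% confidence interval 0.13 to 0.45, adjusted p = 0.206 by limma) kept an unadjusted p under 0.05 in all 15 alternatives run for it. Rpl39 itself had a difference of 0.19 with groups that did not overlap.

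Rplp0, the base of the ribosomal stalk, to which Rplp1 and Rplp2 attach, had relative values of 0.19, 0.021 and 0.13 in the SNI samples and -0.061, -0.021 and -0.16 in the control samples. There was no overlap, but SNI 2 and control 2 were close to each other. The difference was 0.19 (SE 0.067, 1.14-fold, limma's adjusted p = 0.292). Rpl23a, Rpl4 and Rpl35, which lie around the exit tunnel, had differences of 0.17, 0.14 and 0.15, and Rpl14 and Rpl27a had 0.14 and 0.13. These 5 had an unadjusted p under 0.05 and groups that did not overlap. Rpl3, a protein near the site of peptide bond formation, had a difference of 0.15 with an unadjusted p of 0.0615 in limma's fit. Rpl5 and Rpl11, which bind 5S rRNA and can hold back Mdm2, had differences of 0.094 and 0.038, with groups that overlapped for Rpl11 only.

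Rpl7l1 was the only ribosomal protein gene called lower. Its product resembles Rpl7 and is known from the assembly of the large subunit. The relative value was -0.048, -0.070 and -0.035 in the SNI samples and 0.13, 0.034 and 0.078 in the control samples. All SNI samples lay below all control samples, by a difference of -0.13 (SE 0.053, adjusted p = 0.344 by limma). Its 2 probe sets differed in size, with differences of -0.22 and -0.039. Rpl7 itself had a difference of 0.077 with SNI samples above all control samples. The paralogs Rpl3l, of heart and skeletal muscle, and Rpl26l1 had overlapping groups and wide confidence intervals, -0.23 to 0.29 for Rpl3l.

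**Figure D2:**
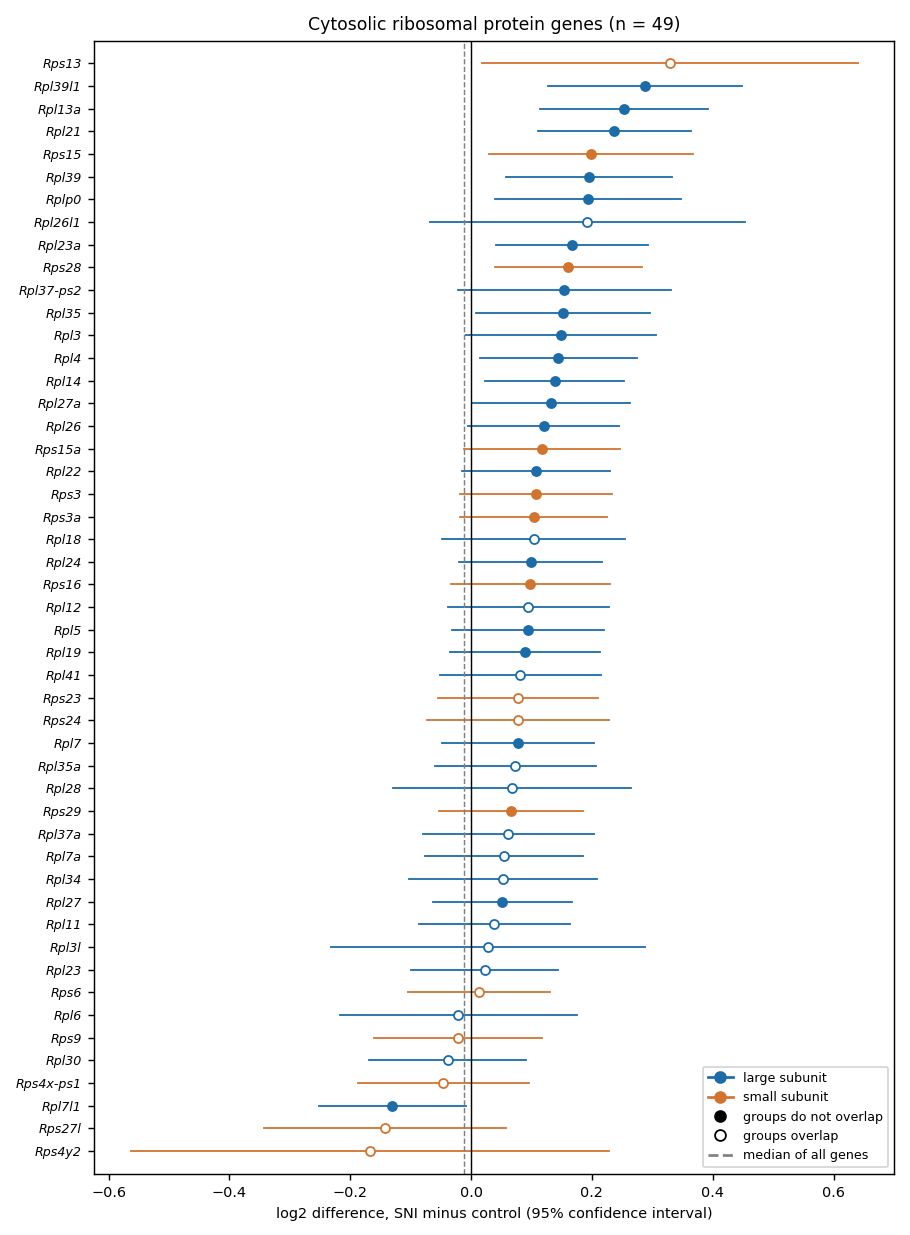
Difference between the groups (log2, SNI minus control) of each of the 49 ribosomal protein genes with limma's 95% confidence interval, ordered by size. Blue marks the large and orange the small subunit, filled points are genes whose groups of 3 do not overlap, and the dashed line is the median of all genes, -0.011. Of the 49 points 42 are to the right of 0, with the lowest at Rps4y2 and the highest at Rps13.

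Small subunit genes showed the same direction, with 11 of 15 above 0, a median difference of 0.078, 3 called higher (20%) and none lower at an unadjusted p under 0.05, against 3.96% and 9.19% of all genes. Rps28 had the most even values of the 3. Its relative value was 0.081, 0.061 and 0.069 in the SNI samples and -0.061, -0.064 and -0.15 in the control samples. SNI samples were all above control samples, and the difference was 0.16 (SE 0.053, 1.12-fold, adjusted p = 0.275 by limma). Rps15 had relative values of 0.11, 0.0077 and 0.087 in the SNI samples and -0.13, -0.0077 and -0.25 in the control samples. These groups did not overlap either, but SNI 2 and control 2 lay next to each other. Its difference was 0.20 (SE 0.073, limma's adjusted p = 0.319).

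Rps13 had the largest difference of the set, 0.33 (SE 0.13, 1.26-fold, limma's adjusted p = 0.351), on values that overlapped. They were 0.45, 0.25 and -0.032 in the SNI samples and -0.32, 0.032 and -0.035 in the control samples, so the difference rests on SNI 1, SNI 2 and control 1. It was named after its values were seen. Rps3, which sits where the mRNA enters, and Rps3a had differences of 0.11 and 0.10 and groups that did not overlap, with an unadjusted p above 0.05. Rps6, the target of the S6 kinases and a usual readout of mTOR activity, had relative values of -0.024, 0.032 and 0.0092 in the SNI samples and -0.0092, 0.019 and -0.032 in the control samples. The groups overlapped throughout, with a difference of 0.013 and a 95% confidence interval of -0.10 to 0.13. The 4 small subunit genes with a difference below 0 were Rps9, Rps27l, Rps4y2 and Rps4x-ps1, the last 3 of which are paralogs or are named as a pseudogene, and the groups overlapped for all 4.

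Ribosomal protein genes have many processed copies in mammalian genomes, and a probe set can read several of them. The 36 probe sets with several symbols that include a ribosomal protein had a median difference of 0.13, with 35 above 0, as were 49.6% of all probe sets. Of these, 10 were called higher and none lower at an unadjusted p under 0.05 in the fit of single probe sets, where 5.6% of all probe sets were called higher and 7.47% lower. Their groups did not overlap for 24 higher probe sets (66.7%, against 8.35% of all probe sets) and for no lower one (11.2% of all probe sets). When probe sets marked as shared between transcripts were left out, 39 of 47 ribosomal protein genes had a difference above 0, against 45.1% of all genes. In that fit 12 were called higher, a count not read as particular to them, since the share of all genes called is not given here. Ribosomal proteins that carry other symbols were in the same direction. Rpsa, a small subunit protein also known as a laminin receptor, had a difference of 0.26 (SE 0.077, limma's adjusted p = 0.246) and Rack1, a scaffold on the small subunit, 0.092, both with groups that did not overlap.

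**Figure D3:**
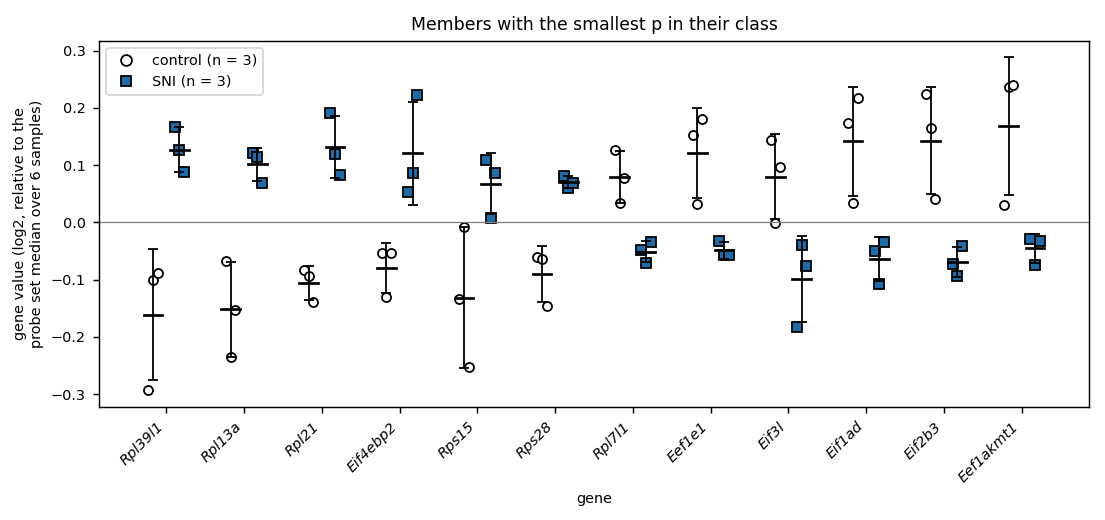
Relative values (log2) of the 12 genes with the smallest unadjusted p in their class among those whose groups do not overlap. Open circles are the 3 control samples, squares the 3 SNI samples, and bars give the mean and SD of each group. Rpl39l1, Rpl13a, Rpl21, Eif4ebp2, Rps15 and Rps28 are higher in the SNI group and the other 6 lower, and in several genes 1 control sample lies apart from its group.

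The initiation factors had 15 genes above 0 and 27 below, with a median difference of -0.046, and 1 was called higher (2.38%) and 5 lower (11.9%) at an unadjusted p under 0.05. These shares are near the 3.96% and 9.19% of all genes. Among the 5 subunits of eIF2B, the exchange factor that recharges eIF2 with GTP and is held back when eIF2 is phosphorylated, 4 were below 0 and 2 were called lower (40% of only 5 genes, against 9.19% of all genes). Eif2b3 had relative values of -0.073, -0.093 and -0.041 in the SNI samples and 0.22, 0.16 and 0.041 in the control samples. All SNI samples lay below all control samples, and the difference of -0.21 (95% confidence interval -0.36 to -0.067, limma's adjusted p = 0.239) kept an unadjusted p under 0.05 in all 15 alternatives. Eif2b4 had a difference of -0.16, also with separate groups, and Eif2b2 one of -0.12 with overlap. Eif2b5, the catalytic subunit, had overlapping values and a difference of -0.025 (95% confidence interval -0.18 to 0.13).

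eIF2 itself, which carries the initiator tRNA, was not called for any of its 4 genes. Eif2s1, the subunit that the eIF2 kinases phosphorylate, had relative values of 0.018, -0.071 and -0.018 in the SNI samples and 0.29, -0.055 and 0.10 in the control samples. The groups overlapped, with control 1 far above the rest, and the difference was -0.14 (SE 0.087). The factors eIF1 and eIF1A help the small subunit to find the start codon. The 4 genes grouped with them by symbol were below 0, with a median of -0.12. Only Eif1ad, whose product shares a domain with eIF1A, was called lower (25% of only 4 genes, against 9.19% of all genes). Its relative values were -0.049, -0.11 and -0.034 in the SNI samples and 0.17, 0.034 and 0.22 in the control samples. The groups did not overlap, and the difference was -0.21 (SE 0.064, adjusted p = 0.257 by limma). Eif1a is read by 4 probe sets and had a difference of -0.16 with overlapping groups, and Eif1ax and Eif1b had -0.079 and -0.014.

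The 11 subunits of eIF3, the scaffold of the initiation complex, went both ways, with 4 above and 7 below 0 and a median of -0.037. Eif3l had relative values of -0.18, -0.040 and -0.075 in the SNI samples and 0.14, -0.0018 and 0.097 in the control samples. SNI samples were all lower than control samples, and the difference was -0.18 (SE 0.065, adjusted p = 0.312 by limma). Its 2 probe sets gave -0.30 and -0.058, of which only the former had groups that did not overlap. In the opposite direction, Eif3f had SNI samples above all control samples and a difference of 0.14 with a limma unadjusted p of 0.053.

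The genes of the cap complex were near 0 or slightly lower, with a median of -0.055 over 11 genes. Eif4e, the cap-binding protein, had relative values of -0.032, 0.024 and 0.013 in the SNI samples and -0.11, 0.047 and 0.040 in the control samples. The groups overlapped and the difference was 0.0080 (95% confidence interval -0.13 to 0.15). Its 3 probe sets did not go the same way, with differences of 0.025, 0.094 and -0.095. Eif4g1, the scaffold between cap and small subunit, had a difference of 0.047 from 4 probe sets, 1 of which reached 0.30 with groups that did not overlap, while the others lay between -0.076 and 0.023. Eif4a1, the helicase that unwinds the leader of the mRNA, had relative values of -0.11, -0.064 and -0.035 in the SNI samples and 0.049, 0.035 and 0.14 in the control samples. The groups did not overlap and the difference was -0.14 (SE 0.056, limma's adjusted p = 0.335). Its close relative Eif4a2 had a difference of -0.079 with groups that overlapped.

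Eif4ebp2, the main 4E-BP of the brain, which binds eIF4E and blocks cap-dependent initiation until mTOR phosphorylates it, was the only factor gene called higher. Its relative value was 0.054, 0.086 and 0.22 in the SNI samples and -0.054, -0.13 and -0.054 in the control samples. The groups did not overlap, SNI 3 was the highest sample, and the difference was 0.20 (SE 0.063, 1.15-fold, limma's adjusted p = 0.263). Eif4ebp1 had a difference of 0.058 and Eif4ebp3 one of -0.076, both with overlapping groups, so the 3 inhibitors did not share a direction. Eif4enif1, which carries eIF4E into the nucleus, had a difference of -0.11 with SNI samples below all control samples.

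Among the genes of elongation and the remaining factors 5 of 14 were above 0, with a median difference of -0.039, none called higher and 2 lower (14.3%, against 9.19% of all genes). The elongation factors proper were not among those called. Eef1a1, which delivers the tRNAs, had relative values of 0.090, 0.014 and -3.8e-05 in the SNI samples and 0.0069, -0.10 and -0.060 in the control samples. The groups overlapped only through SNI 3 and control 1, and the difference was 0.086 (SE 0.057). Eef1a2, the form used by mature neurons and muscle, had a difference of 0.060 (95% confidence interval -0.12 to 0.24). Eef2, which moves the ribosome along, had a difference of 0.064 (95% confidence interval -0.070 to 0.20). Eef2k, the kinase that switches eEF2 off, had a difference of 0.12 (SE 0.067) from 4 probe sets that were all above 0, between 0.033 and 0.19, and its groups overlapped through control 2.

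The 2 genes called lower here are not elongation factors. Eef1akmt1, a methyltransferase of eEF1A, had relative values of -0.029, -0.074 and -0.033 in the SNI samples and 0.029, 0.24 and 0.24 in the control samples. Both groups stayed apart, with SNI 1 and control 1 closest, and the difference was -0.21 (SE 0.070, limma's adjusted p = 0.275). Eef1e1, the p18 protein that associates with the aminoacyl-tRNA synthetase complex, had relative values of -0.033, -0.057 and -0.057 in the SNI samples and 0.15, 0.033 and 0.18 in the control samples. All SNI samples lay below all control samples, by a difference of -0.17 (SE 0.058, adjusted p = 0.291 by limma). Genes of this kind, the inhibitors and those named as pseudogenes were left out in a further count. Of the remaining 47 factor genes, 5 were called lower and 0 higher at an unadjusted p under 0.05. The share called lower is near the 9.19% of all genes, and 3.96% of all genes were called higher.

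**Figure D4:**
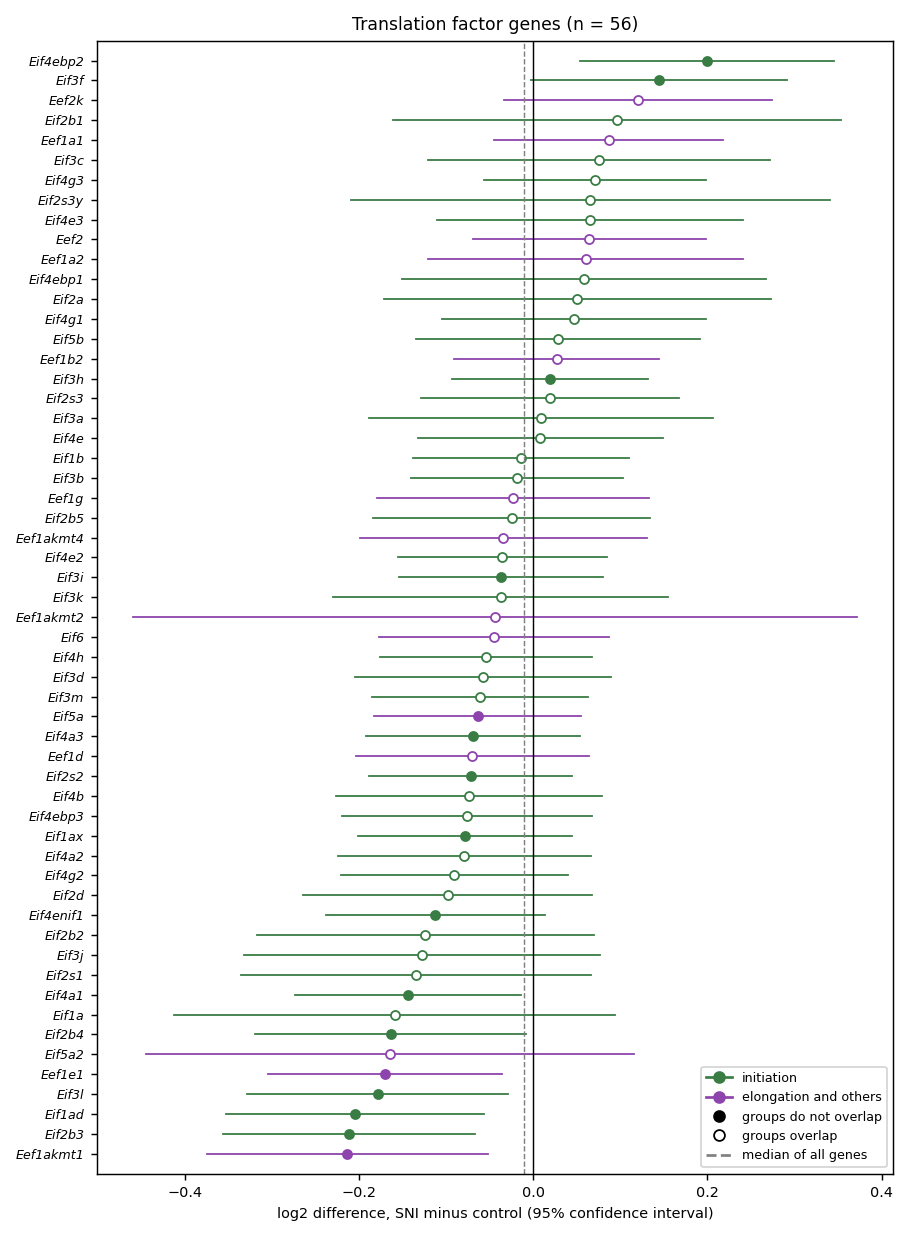
Difference between the groups (log2, SNI minus control) of each of the 56 factor genes with limma's 95% confidence interval, ordered by size. Green marks initiation and purple elongation and the remaining factors, filled points are genes whose groups of 3 do not overlap, and the dashed line is the median of all genes, -0.011. Of the 56 points 36 are to the left of 0, from Eef1akmt1 at -0.21, and Eif4ebp2 at 0.20 is the highest.

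The count of 7 factor genes called lower was 4 without SNI 1, 3 without SNI 2, SNI 3 or control 3, and 12 without control 2. With the hybridization controls as a covariate it was 3. The share of all genes called in these fits is not given here, so the counts are not read as particular to the factors.

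The ribosome was compared with the factors within each sample, where a shift common to all genes of an array cancels. The median of the ribosomal protein genes minus that of the factors was 0.054, 0.054 and 0.039 in the SNI samples and -0.071, -0.036 and -0.097 in the control samples. All SNI samples lay above all control samples, and the group means were 0.049 ± 0.0089 for SNI and -0.068 ± 0.031 for control (SD, n = 3). Because each probe set is centred on its median over the 6 samples, separate groups tend to fall on opposite sides of 0. The sign therefore does not show which kind of mRNA was more abundant in a sample. The median difference of the ribosomal proteins exceeded that of the factors by 0.14. It was 0.14 also with the hybridization controls as a covariate, and 0.097 without control 1 and control 3. Because the genes were chosen with results of these arrays known, no p is given for these medians.

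Mitochondrial ribosomal proteins, which serve translation inside mitochondria and are encoded by other genes, lay on the other side of 0. Of 73 genes 65 had a difference below 0, with a median of -0.075, and 19 were called lower (26%) and none higher at an unadjusted p under 0.05, against 9.19% and 3.96% of all genes. Their median relative value was -0.040, -0.023 and -0.019 in the SNI samples and 0.051, 0.015 and 0.040 in the control samples. The lowest p belonged to Mrps35, with a difference of -0.30 (SE 0.071, adjusted p = 0.206 by limma) and groups that did not overlap.

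**Figure D5:**
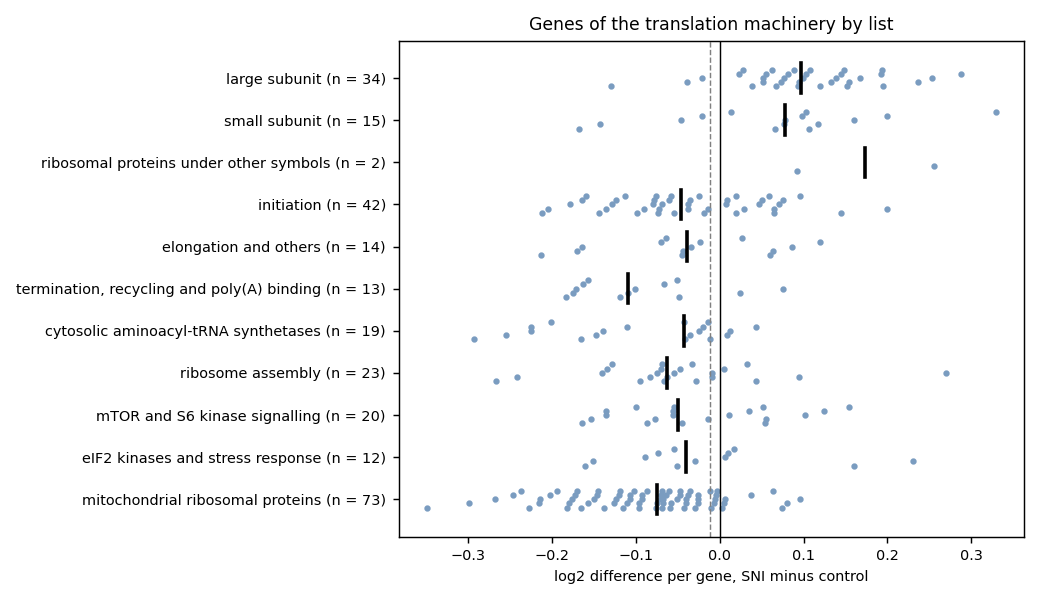
Difference between the groups (log2, SNI minus control) of every gene in each list of the translation machinery. Points are genes, black bars the medians of the lists, and the dashed line the median of all genes, -0.011. The medians of the subunits of the cytosolic ribosome, 0.097 and 0.078, and of 2 ribosomal proteins under other symbols lie above 0, and those of the other lists below.

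The other lists of the translation machinery had medians below 0. Of the 13 genes of termination, recycling and poly(A) binding, 4 were called lower (30.8%, against 9.19% of all genes) and none higher (3.96% of all genes), with a median of -0.11. The 4 were Etf1, the release factor that reads stop codons, its partner Gspt2, Abce1, which splits ribosomes for reuse, and Paip2, an inhibitor of poly(A)-binding protein, with differences between -0.18 and -0.16. Of 19 cytosolic aminoacyl-tRNA synthetases, which charge the tRNAs, 7 were called lower (36.8%) and none higher, with a median of -0.043. Gars1 had a difference of -0.29 (SE 0.078) and Wars1 one of -0.23 (SE 0.058), and the groups did not overlap for either.

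Among 23 genes of ribosome assembly 5 were called lower (21.7%) and 1 higher (4.35%), against 9.19% and 3.96% of all genes, with a median of -0.063. Polr1b, a subunit of RNA polymerase I, which makes rRNA, had a difference of -0.27 (SE 0.080), and Fbl, which methylates rRNA, had one of -0.24 with groups that overlapped. Dkc1, which modifies rRNA and also stabilizes telomerase RNA, was higher by 0.27 (SE 0.062, adjusted p = 0.200 by limma). Of 20 genes of mTOR and S6 kinase signalling 1 was called higher (5%, near the share of all genes) and none lower, with a median of -0.050. It was Mknk2, a kinase that phosphorylates eIF4E, with a difference of 0.15 (SE 0.057). Mtor had a difference of -0.054 and Rps6kb1, which encodes S6 kinase, one of -0.077, both with overlapping groups. Of 12 genes of the eIF2 kinases and the stress response 1 was called higher (8.33%) and none lower. It was Ppp1r15a, which directs dephosphorylation of eIF2, with a difference of 0.23 and overlapping groups, while Atf4, the transcription factor induced by eIF2 phosphorylation, had -0.089 and overlapped.

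Other features of the samples also differed, not all of them by group. The 18 hybridization control probe sets, which read transcripts added before hybridization, all had a difference above 0, with a median of 0.29, and their array means were 0.19, 0.054 and 0.097 in the SNI samples and -0.047, -0.20 and -0.22 in the control samples. Of 27 probe sets for the Bacillus transcripts used as poly(A) controls, 25 were above 0, with a median of 0.25. Probe sets at the 3′ end minus those at the 5′ end, a measure of RNA integrity, had higher means in the SNI group by 0.070 for GAPDH, 0.067 for beta-actin and 0.090 for hexokinase. The groups overlapped for each of these transcripts, for beta-actin with SNI 2 at 0.0036 and control 1 at 0.055. Control 1 and control 3 also stood apart on the first principal component (35.8% of the variance), at 21.9 and 16.0, with the other 4 samples between -11.3 and -6.18. Control 2 was at -6.18, while its median over the ribosomal protein genes, -0.029, was near that of control 1, -0.035. Of 10 microglial markers 9 had a difference above 0 and 7 were called higher (70%, against 3.96% of all genes), with a median of 0.24, and their median relative value was 0.070 to 0.14 in the SNI samples and -0.16 to -0.095 in the control samples. Of 10 neuronal markers 9 were below 0 and 2 were called lower (20%, against 9.19% of all genes), with a median of -0.14. Astrocytic, oligodendrocytic and endothelial markers had medians of 0.093, -0.064 and 0.10. In this bulk tissue, fewer cells of a type and less RNA per cell cannot be told apart, and the part of the array controls, RNA integrity and cell types in the values of the ribosomal proteins and factors was not tested beyond the fit with the hybridization controls as a covariate. Without control 1 and control 3, which left control 2 alone in its group, the ribosomal proteins had a median of 0.072. Of the 49 genes 37 were then above 0, against 39.8% of all genes.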

How the data were processed

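Gene expression was measured in 6 samples of the contralateral PL of male rats, 3 SNI and 3 control, which were grouped by their labels. The authors corrected the arrays by RMA, took log2 and applied quantile normalization. The deposited log2 values also have each probe set's own median subtracted (largest remaining median 4.78e-07 over the 6 samples), a step not described in the sources used here, as are the software versions. The array has 31099 probe sets, of which 57 are controls and were not tested. Of the rest, 20826 had 1 symbol in the platform annotation, 436 several and 9780 none, and a gene took the mean of its probe sets with that symbol alone. The 14217 genes were fitted with lmFit and eBayes of limma 3.58.1 (R 4.3.3), SNI minus control, two-sided, without covariates, with Benjamini-Hochberg adjustment over all genes. Single probe sets were fitted likewise over 31042 probe sets. The fit was tested on simulated data. The members and lists were chosen with earlier results of these data known.

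The genes named are, in each of 4 classes, up to 3 higher and 3 lower genes with the smallest p among those with non-overlapping groups and an unadjusted p under 0.05, and genes named for their role. Others were named after their values were seen. Alternatives were the normalization repeated, array medians aligned, robust variances, the methods' t-test, other thresholds, other probe set rules, the hybridization controls as a covariate, the replicate number as a block, and each sample left out. Added after seeing the data were the fit without control 1 and control 3 together and the core members alone. Start windows came from the RefSeq table of GRCr8.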

Additional observations from a re-analysis of the deposited data

How the results depend on the processing

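No gene of the set passed an adjusted p under 0.05 in any setting, or under 0.10 with all samples. Without control 2, 5 of the named genes were under 0.10 (Eif1ad 0.0838, Rpl39l1 0.0905, Eef1e1 0.0919, Rpl21 0.0947 and Rps15 0.0962). The share of all genes under 0.10 in that fit is not given here, so these 5 are not read as particular to the set. The ribosomal protein median lay between 0.075 and 0.11 when 1 sample was left out, the factor median between -0.052 and -0.034, and the median of the ribosome minus that of the factors between 0.12 and 0.16. The counts at an unadjusted p under 0.05 then ranged from 4 to 16 (ribosomal, higher), 0 to 1 (ribosomal, lower), 0 to 3 (factors, higher) and 3 to 12 (factors, lower), with fewer samples in each fit. The shares of all genes called in these fits and in the covariate fit are not given here, so the counts are not read as particular to the set. With the hybridization controls as a covariate the medians were 0.068 and -0.071, and the counts 1 and 0 for ribosomal proteins and 3 for factors called lower, and of the 13 and 7 genes called without the covariate 1 each was called again. At an unadjusted p under 0.01 the counts were 3 and 0 for ribosomal proteins and 0 and 1 for factors. Without control 1 and control 3 together, which left control 2 alone in its group, the factor median was -0.024 and the ribosome minus the factors 0.097. The count of factors called higher was 2 with array medians aligned or quantile normalization repeated, 0 with core members alone and 3 with each probe set on its own. The cause of these shifts was not tested. The other settings kept the counts within 1.5 times and the medians within the spread between replicates, among them the methods' t-test with 18 and 1 ribosomal proteins and 1 and 8 factors. For that t-test the shares of all genes called are not given here either, and its counts are not read as particular to the set.

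Samples of the same replicate number did not deviate together (correlations of -0.022, -0.0074 and -0.045 over genes, and -0.046 to 0.080 for different numbers). Whether the samples were paired by design was not stated, and these correlations cannot show it. With the replicate number as a block, 9 ribosomal proteins were called higher and 0 lower, and 1 and 5 factors. The shares of all genes called in the blocked fit are not given here, so its counts are not read as particular to the set.

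In some settings 9 genes named for their role, none of them called with all samples and no covariate, changed sign. Of the role genes, Eif2s1, Eif4ebp1 and Eef2k had an unadjusted p under 0.05 in limma's fit without control 2, and Eif2s1 and Eef1a2 with the hybridization controls as a covariate. Without control 1 and control 3 the differences were -0.013 (Rps6), 0.031 (Eif2s1), 0.079 (Eif2b5), -0.045 (Eif4e), 0.010 (Eif4a2), -0.14 (Eif4ebp1) and -0.065 (Eef1a2). With the hybridization controls as a covariate they were -0.061 (Eef1a1) and -0.065 (Eef2), and with the median of probe sets -0.023 (Eif4e). When 1 sample was left out, differences ranged from -7.0e-06 to 0.028 (Rps6), -0.077 to 0.025 (Eif2b5), -0.042 to 0.034 (Eif4e), -0.0013 to 0.16 (Eif4ebp1) and -0.011 to 0.12 (Eef1a2).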
